A study of Mus musculus with 2 samples.

Results

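The 10 genes of insulin receptor signalling and of the arrestin-domain glucose sensors described here were followed across the cell classes of the mouse retina and between a diabetic and a control library. They were found by symbol among the 17087 genes of the count table, and all 10 were present: the receptors Insr and Igf1r, the adaptors Irs1 and Irs2, the transcription factors Foxo1 and Foxo3, the arrestin-domain proteins Txnip, Arrdc4 and Arrdc2, and the secreted binding protein Igfbp5. The retinas came from male C57BL/6 mice. The STZ mice had been given streptozotocin (STZ), a toxin of the insulin-producing beta cells, by intraperitoneal injection of 55 mg/kg at 3 to 5 weeks of age, were counted as diabetic above 300 mg/dL of blood glucose and then had high glucose for 25 weeks, while the control mice were untreated. Each group was a single 10x 3' library from 3 pooled retinas. With 1 library per group there are no replicates, so no test was made, and every interval given is a 95% counting interval that leaves out the variation between animals and between libraries.

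Insulin and the insulin-like growth factors bind the receptor tyrosine kinases INSR and IGF1R, which phosphorylate the IRS adaptors and so start the PI3K and AKT relay. Active AKT keeps the FOXO transcription factors out of the nucleus, and low insulin action lets them enter it, where they drive genes of stress resistance and fasting metabolism. TXNIP and ARRDC4 are alpha-arrestins whose transcription follows glucose, through the factors MondoA and ChREBP at carbohydrate response elements, and which lower glucose uptake. In the retina, Müller glia span the tissue and supply the neurons with metabolites, and TXNIP has been studied there in diabetes.

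The sequences that bear on this glucose response are the promoters of the arrestin-domain genes, shown here as the 250 bases before the RefSeq start on GRCm38.p6 (mm10), 5′ to 3′ on the strand of the gene. Capitals mark matches, on either strand, to the paired E-box (CACGNG and, after a short gap, CACGNG again), to the single E-box CACGTG and its variant CACGAG (which may lie inside the paired form), and to the FOXO element GTAAACA. Txnip is read on the plus strand at chr3:96557707-96557956, Arrdc4 on the minus strand at chr7:68749239-68749488 and Arrdc2 on the minus strand at chr8:70839721-70839970.
Txnip: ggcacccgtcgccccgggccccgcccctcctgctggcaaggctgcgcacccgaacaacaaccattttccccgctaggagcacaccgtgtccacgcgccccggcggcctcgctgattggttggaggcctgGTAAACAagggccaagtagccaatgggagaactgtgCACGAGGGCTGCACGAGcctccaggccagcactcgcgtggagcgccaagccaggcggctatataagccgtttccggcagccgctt
Arrdc4: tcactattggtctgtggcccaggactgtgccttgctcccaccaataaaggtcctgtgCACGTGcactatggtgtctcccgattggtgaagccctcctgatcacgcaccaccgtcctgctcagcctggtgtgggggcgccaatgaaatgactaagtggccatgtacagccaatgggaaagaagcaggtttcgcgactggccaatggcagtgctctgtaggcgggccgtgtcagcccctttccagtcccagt
Arrdc2: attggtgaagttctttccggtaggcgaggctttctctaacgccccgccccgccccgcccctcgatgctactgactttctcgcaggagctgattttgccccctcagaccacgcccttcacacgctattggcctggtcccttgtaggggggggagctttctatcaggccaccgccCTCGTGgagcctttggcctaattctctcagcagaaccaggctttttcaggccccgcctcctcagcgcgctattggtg

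The Txnip promoter held the paired E-box 85 bases before the start, a form found in 15 of 32851 RefSeq promoter windows of the same length (0.0457%). It also held a FOXO element 121 bases before the start, which 3.17% of windows hold. The Arrdc4 window held CACGTG 193 bases before the start (6.02% of windows), as did those of Irs1 at 115 bases and Irs2 at 44 bases. The Arrdc2 window held the variant CACGAG on the opposite strand, 77 bases before the start (5.37% of windows), and none of the other forms. A promoter was matched for 9 of the 10 genes, all but Insr. A match describes the letters of a window and does not show that a factor binds there.

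Median depth per cell was 3800 UMIs (molecules counted by their barcode) over the 7169 control cells and 2062 UMIs over the 12393 STZ cells, and 21 cell barcodes were shared between the libraries. Filters left 5288 and 8232 cells, in which 9 classes had at least 50 cells in each library. These classes were named from marker genes, hence the ending -like. Of the clusters left unnamed and in no class, the largest had 15 control and 1766 STZ cells, at median depths of 784 and 705 UMIs. The classes therefore do not hold the same part of both libraries. A level is given in CPM, the gene's counts scaled to the usual common total of UMIs of its class and library, so that it is compared between classes and libraries for 1 gene at a time and not between genes. Median depth differed most in endothelial-like cells, 3170 UMIs in control against 953 in STZ. The summed level of 8 rod genes there was 1125 against 2796 CPM, and that of the erythrocyte markers was 2.97 against 6290 CPM. Müller glia markers summed to 1843 against 6391 CPM and cone markers to 522 against 2491 CPM, while the class's own endothelial markers summed to 21663 against 14569 CPM. The part of these differences in the endothelial-like results was not tested.

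A gene counted as measured in a class at 10 CPM or more pooled and at 20 UMIs or more, which 50 of the gene and class pairs reached. Of these 50 pairs, 7 were at least 1.5-fold higher in STZ and 5 at least 1.5-fold lower. Because the rule pools both libraries, a pair can be measured through 1 library alone. Igfbp5 in endothelial-like cells (0 UMIs in control, 22 in STZ) and Irs1 in amacrine-like cells (2 and 22) entered through STZ. They could only be called higher, so these 2 calls carry no weight as results. The same rule was used for the background. The background was 9.44% higher and 8.54% lower over all 64966 measured gene and class pairs. By class, the background over all measured genes ran from 4.5% higher in cone bipolar-like cells to 22.7% in pigment epithelium-like cells, and from 2.93% lower in Müller glia-like cells to 18.4% in pigment epithelium-like cells. In Müller glia-like cells 3 of 7 measured members were higher and 0 lower, against a background of 4.84% and 2.93%. No member passed 1.5-fold in rod-like cells (5 measured; background 7% higher, 9.37% lower), cone-like cells (5 measured; 5.04% and 2.99%) or rod bipolar-like cells (5 measured; 4.9% and 5.85%). The plot of ratios gives every measured pair.

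Insr, the insulin receptor, was measured in all 9 classes. In control its level ran from 30.3 CPM in cone-like cells to 125 CPM in pigment epithelium-like cells, and in STZ from 33.6 CPM in cone-like to 124 CPM in pigment epithelium-like cells. In endothelial-like cells Insr had 38 UMIs in control (113 CPM) and 42 in STZ (65.3 CPM), a ratio of 0.58 (0.36 to 0.92). This was the 1 class in which it passed 1.5-fold, and the 6 measured members there gave 2 higher and 1 lower, against a background of 19% and 17.4%. With every cell thinned to 500 UMIs the log2 ratio of Insr turned to 0.56. In endothelial-like cells of at least 1000 UMIs the ratio was 0.67 (0.42 to 1.08). The Müller glia-like levels of Insr were 71.2 and 60.9 CPM, a ratio of 0.85 (0.73 to 0.99).

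Igf1r, the receptor of the insulin-like growth factors, was also measured in all 9 classes and was highest in endothelial-like cells in both libraries, with 653 CPM against 454 CPM in STZ. The next level in control was that of amacrine-like cells, 287 CPM. Its clearest difference lay in cone bipolar-like cells, the interneurons that carry cone signals. There it had 816 UMIs in control and 686 in STZ, or 259 against 168 CPM, a ratio of 0.65 (0.59 to 0.72). It was the 1 member of 6 measured there to pass 1.5-fold, with a background of 4.5% higher and 4.67% lower. The share of cone bipolar-like cells with an Igf1r UMI was 58.7% in control and 41.7% in STZ. After thinning to 500 UMIs per cell the shares were 12.2% (10.1 to 14.7) and 8.52% (6.98 to 10.3).

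The lower Igf1r level was seen in each of the 5 clusters that make up the cone bipolar-like class. The ratio was 0.65 in cluster 8, 0.66 in cluster 9, 0.58 in cluster 11, 0.77 in cluster 12 and 0.59 in cluster 17, and the interval of cluster 12 alone included 1 (0.57 to 1.05). The unnamed clusters 7, with the cone bipolar marker Vsx1 among its leading genes, and 13 had ratios of 0.65 and 0.54. In rod bipolar-like cells, the interneurons of the rod pathway, Igf1r stood at 191 against 162 CPM, a ratio of 0.85 (0.76 to 0.95). In cone-like cells the direction was the other one, from 148 to 176 CPM, a ratio of 1.19 (1.07 to 1.33), and in Müller glia-like cells the levels were 198.2 and 198 CPM.

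**Figure D1:**
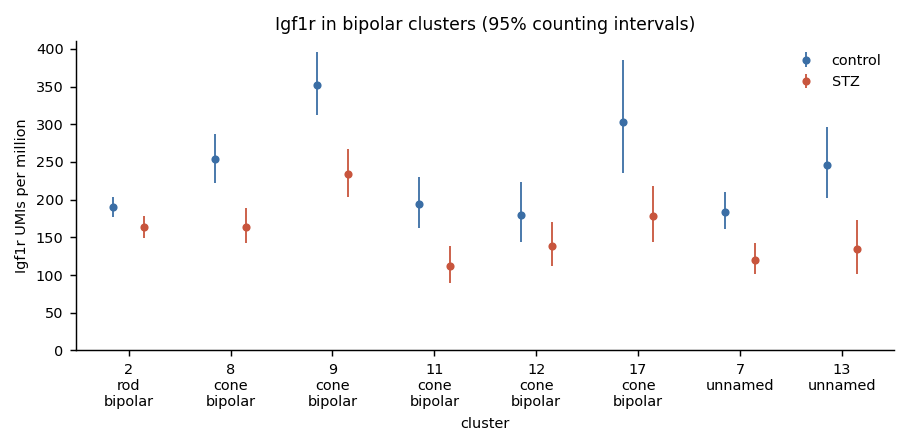
Igf1r level in CPM (y axis) in the main rod bipolar-like cluster, the 5 cone bipolar-like clusters and 2 unnamed clusters (x axis), control in blue and STZ in red, with 95% counting intervals. STZ lies below control in every cluster shown, least so in cluster 2 and cluster 12.

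Of the adaptors that carry the signal from the receptors, Irs1 was measured in 2 classes and Irs2 in 7. Irs1 had 119 UMIs in control and 82 in STZ in the Müller glia-like class, or 17.7 and 18 CPM. In amacrine-like cells it had 2 and 22 UMIs, a ratio of 2.63 whose interval, 0.65 to 23.1, includes 1. Amacrine-like cells gave 2 higher and 0 lower of 5 measured members, against a background of 16% and 13.7%.

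Irs2 was highest in pigment epithelium-like cells, the epithelium behind the photoreceptors. It had 27 UMIs in control (280 CPM) and 34 in STZ (108 CPM) there, a ratio of 0.39 (0.23 to 0.66). A single control cell held 22.2% of those control UMIs. Together with Igfbp5 this made 2 lower and 0 higher of 5 measured members in that class, where the background was 22.7% higher and 18.4% lower. Other measures differed there too: cone markers summed to 644 against 2826 CPM, rod bipolar markers to 280 against 753 CPM and the class's own markers to 66545 against 54903 CPM, and the median mitochondrial share was 4.75% against 10.4%. Their part in these calls was not tested. In cone bipolar-like cells Irs2 went from 19.4 CPM in control to 27.4 CPM in STZ, a ratio of 1.42 (1.03 to 1.97), which is short of 1.5-fold. Pericyte or smooth muscle-like cells, the mural cells of the vessels, held 81 and 81.5 CPM.

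Foxo1 was measured in 6 classes, and its levels were highest in the endothelial-like and the Müller glia-like class. The latter held 366 Foxo1 UMIs in control and 400 in STZ, or 54.3 against 87.9 CPM, a ratio of 1.62 (1.40 to 1.87). In endothelial-like cells, where FOXO1 is known to restrain vessel growth, the levels were 65.31 and 65.28 CPM. Foxo3 was measured in all 9 classes, with a ratio above 1 in 7 of them. Its Müller glia-like levels were 41.7 and 60.2 CPM, a ratio of 1.44 (1.22 to 1.71), and its cone-like levels 41 and 53.1 CPM, a ratio of 1.29 (1.06 to 1.59). In pericyte or smooth muscle-like cells it was lower in STZ, with 21 UMIs (56.7 CPM) against 14 UMIs (25.9 CPM), a ratio of 0.46 (0.22 to 0.94). That was the 1 call among 6 measured members in that class, with a background of 12.8% higher and 11% lower. Foxo3 also passed 1.5-fold in amacrine-like cells (ratio 1.79) and endothelial-like cells (ratio 1.52), and both intervals include 1.

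Txnip had its highest levels in microglia-like and vascular cells, followed by Müller glia-like cells. In control its level was 346 CPM in microglia-like cells (43 cells, under the minimum for the comparison), 270 CPM in endothelial-like, 135 CPM in pericyte or smooth muscle-like and 36.1 CPM in Müller glia-like cells. In the 5 neuronal classes it was at most 6.8 CPM in either library and was not measured. Müller glia-like Txnip had 243 UMIs in control and 322 in STZ, or 36.1 against 70.8 CPM, a ratio of 1.96 (1.66 to 2.33). The 2 intervals of the level, 31.7 to 40.9 and 63.3 to 78.9 CPM, do not overlap.

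The share of Müller glia-like cells with a Txnip UMI was 14.2% in control and 25.1% in STZ, at median depths of 6042 and 5916 UMIs. In cone-like cells, which served as the class low in the gene, it was 0.256% and 0.784%, at 5536 and 4769 UMIs. After thinning to 500 UMIs the Müller glia-like shares were 1.57% (0.936 to 2.48) and 2.20% (1.31 to 3.46), too close to be told apart at that depth, and the thinned log2 ratio of the level was 0.48. In endothelial-like cells Txnip stood at 270 and 395 CPM, a ratio of 1.46 (1.15 to 1.88). In endothelial-like cells of at least 1000 UMIs the ratio was 1.66 (1.29 to 2.15). Over the other settings the log2 ratio in this class ran from -0.0017 after thinning to 1.17 with free RNA taken off. In pericyte or smooth muscle-like cells it was 135 and 107 CPM, a ratio of 0.80 (0.54 to 1.19). Txnip lies at chr3:96557957-96561883 on the plus strand (mm10), inside the antisense gene Gm15441, which had 7 UMIs in control and 10 in STZ in Müller glia-like cells. Whether the authors' counting used strand is not given in the sources used here.

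Arrdc2, a less studied alpha-arrestin, was measured in Müller glia-like cells alone and showed the largest ratio there of the 7 measured members. It had 159 UMIs in control and 343 in STZ, or 23.6 against 75.4 CPM, a ratio of 3.20 (2.64 to 3.88). Elsewhere Arrdc2 counts were too low to be measured, and the ratios that could be formed from them were above 1. Müller glia markers were also counted in other classes, with 587 and 597 CPM in cone bipolar-like cells. The part of such RNA in these low counts was not tested. Cone bipolar-like cells held 5 and 19 UMIs (ratio 2.93, 1.06 to 10.1). Intervals included 1 for the pericyte or smooth muscle-like (4.80), rod bipolar-like (2.44), cone-like (2.27), amacrine-like (1.79), endothelial-like (1.57) and rod-like (1.37) ratios. Pigment epithelium-like cells, at 10.4 and 9.54 CPM, had too few UMIs for a ratio. Cells with an Arrdc2 UMI made up 12.5% of the control and 30.6% of the STZ Müller glia-like cells, against 1.15% and 2.24% of the cone-like cells. After thinning the Müller glia-like shares were 1.14% (0.607 to 1.94) and 3.18% (2.09 to 4.63). Arrdc4, a close relative of Txnip, was measured in 0 of the 9 classes. The Müller glia-like class held 22 Arrdc4 UMIs in control and 16 in STZ, or 3.26 and 3.52 CPM. Over all kept cells, whose mix of classes differs between the libraries, Arrdc4 had 102 and 153 UMIs, a ratio of 1.44 (1.12 to 1.87).

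The Müller glia-like class joined 2 clusters of different character. Cluster 3 (611 control and 397 STZ cells) was led by genes such as Aqp4 and Abca8a, and cluster 4 (532 and 420 cells) by the immediate early genes Cyr61, Fosb, Jun and Ier2. Txnip was higher in STZ in both, from 24.4 to 50.5 CPM in cluster 3 (ratio 2.07, 1.52 to 2.82) and from 46.8 to 85.6 CPM in cluster 4 (ratio 1.83, 1.49 to 2.25). So was Arrdc2, with ratios of 3.59 (2.67 to 4.88) and 2.90 (2.25 to 3.75). The background was 6.29% higher and 5% lower in cluster 3, and 7.9% and 3.95% in cluster 4. Foxo1 passed 1.5-fold in cluster 4 (ratio 1.87, 1.53 to 2.29) and not in cluster 3 (ratio 1.38, 1.11 to 1.71). Foxo3 did likewise, with 1.73 (1.36 to 2.19) and 1.21 (0.94 to 1.55). The Igf1r ratio was 0.88 (0.776 to 0.999) in cluster 3 and 1.14 (1.01 to 1.28) in cluster 4. That of Insr was 0.74 (0.60 to 0.92) and 1.02 (0.82 to 1.26). The difference between the clusters was not tested for any of these genes.

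**Figure D2:**
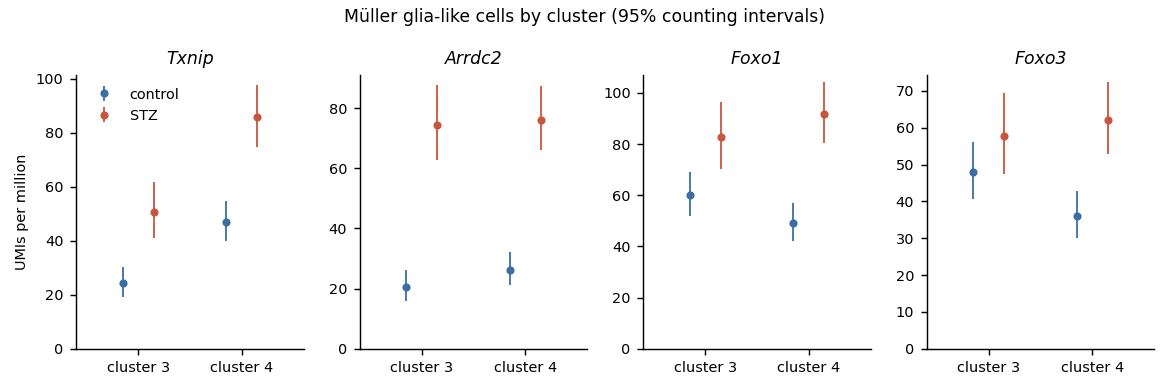
Levels of Txnip, Arrdc2, Foxo1 and Foxo3 in CPM (y axes) in the 2 Müller glia-like clusters (x axes), control in blue and STZ in red, with 95% counting intervals. Arrdc2 and Txnip lie higher in STZ in both clusters, with intervals that do not overlap, and the Foxo3 intervals overlap in cluster 3.

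Since Txnip was high in vessels and microglia, the defining markers of those cells were read in the Müller glia-like class. Cldn5 stood at 1.93 and 4.84 CPM (control, then STZ), Pecam1 at 0.445 and 0.879 CPM, and Cdh5 at 0.593 and 0.220 CPM. Rgs5 stood at 3.86 and 4.18 CPM and Kcnj8 at 0.593 and 0.659 CPM. Of the microglial markers, C1qa stood at 1.04 and 1.76 CPM, C1qb at 0.148 and 0.879 CPM, C1qc at 0.297 and 0.220 CPM, and Cx3cr1 at 0 in both. The summed level of the 10 endothelial markers was 1296 and 1777 CPM, nearly all of it from Flt1 (631 and 1032 CPM) and Kdr (627 and 689 CPM). That of the 10 microglial markers was 23.4 and 29 CPM. Among the 1089 control and 765 STZ cells without a UMI of these 9 defining vascular and microglial markers, the log2 ratio was 1.01 for Txnip, 1.71 for Arrdc2 and 0.66 for Foxo1. In all cells of the class it was 0.97, 1.68 and 0.70. The filter left out few of the 1143 control and 817 STZ cells and did not use Flt1 or Kdr, so it could move these ratios little. The part of vascular and microglial RNA in them was not tested.

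Igfbp5, a secreted protein that binds insulin-like growth factors, was measured in 4 classes. In pigment epithelium-like cells it had 21 UMIs in control (218 CPM) and 36 in STZ (114 CPM), a ratio of 0.52 (0.30 to 0.95). In endothelial-like cells it had 0 UMIs in control and 22 in STZ, in 19 of 399 cells, and so was measured through STZ alone. Set against a floor of 3 counts for the control library, the ratio is 3.84, and its counting interval starts lower, at 2.87. In cells of at least 1000 UMIs, with 10 STZ UMIs, the ratio against that floor is 2.23, with an interval from 1.5. The control share, 0 of 98 cells, allows up to 3.06% of cells with a UMI by the same floor. The direction turned with the clustering: at Leiden resolution 0.5 the class held 106 control cells, 8 of which held 163 Igfbp5 UMIs, and the log2 ratio was -1.37. Cells with an Igfbp5 UMI went from 0 to 8 in control and from 19 to 26 in STZ. The main clustering had a separate astrocyte cluster of 8 control and 7 STZ cells, and no cluster was named astrocyte at resolution 0.5. Whether those astrocyte cells joined the endothelial-like class there was not tested. In pericyte or smooth muscle-like cells Igfbp5 stood at 67.5 and 87.1 CPM, a ratio of 1.29 (0.78 to 2.19). In cone bipolar-like cells it was 39.3 and 32.8 CPM, and the clusters went opposite ways: cluster 9 from 109 to 61.2 CPM (ratio 0.56, 0.39 to 0.79) and cluster 11 from 39.7 to 67.8 CPM (ratio 1.71, 1.05 to 2.83).

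**Figure D3:**
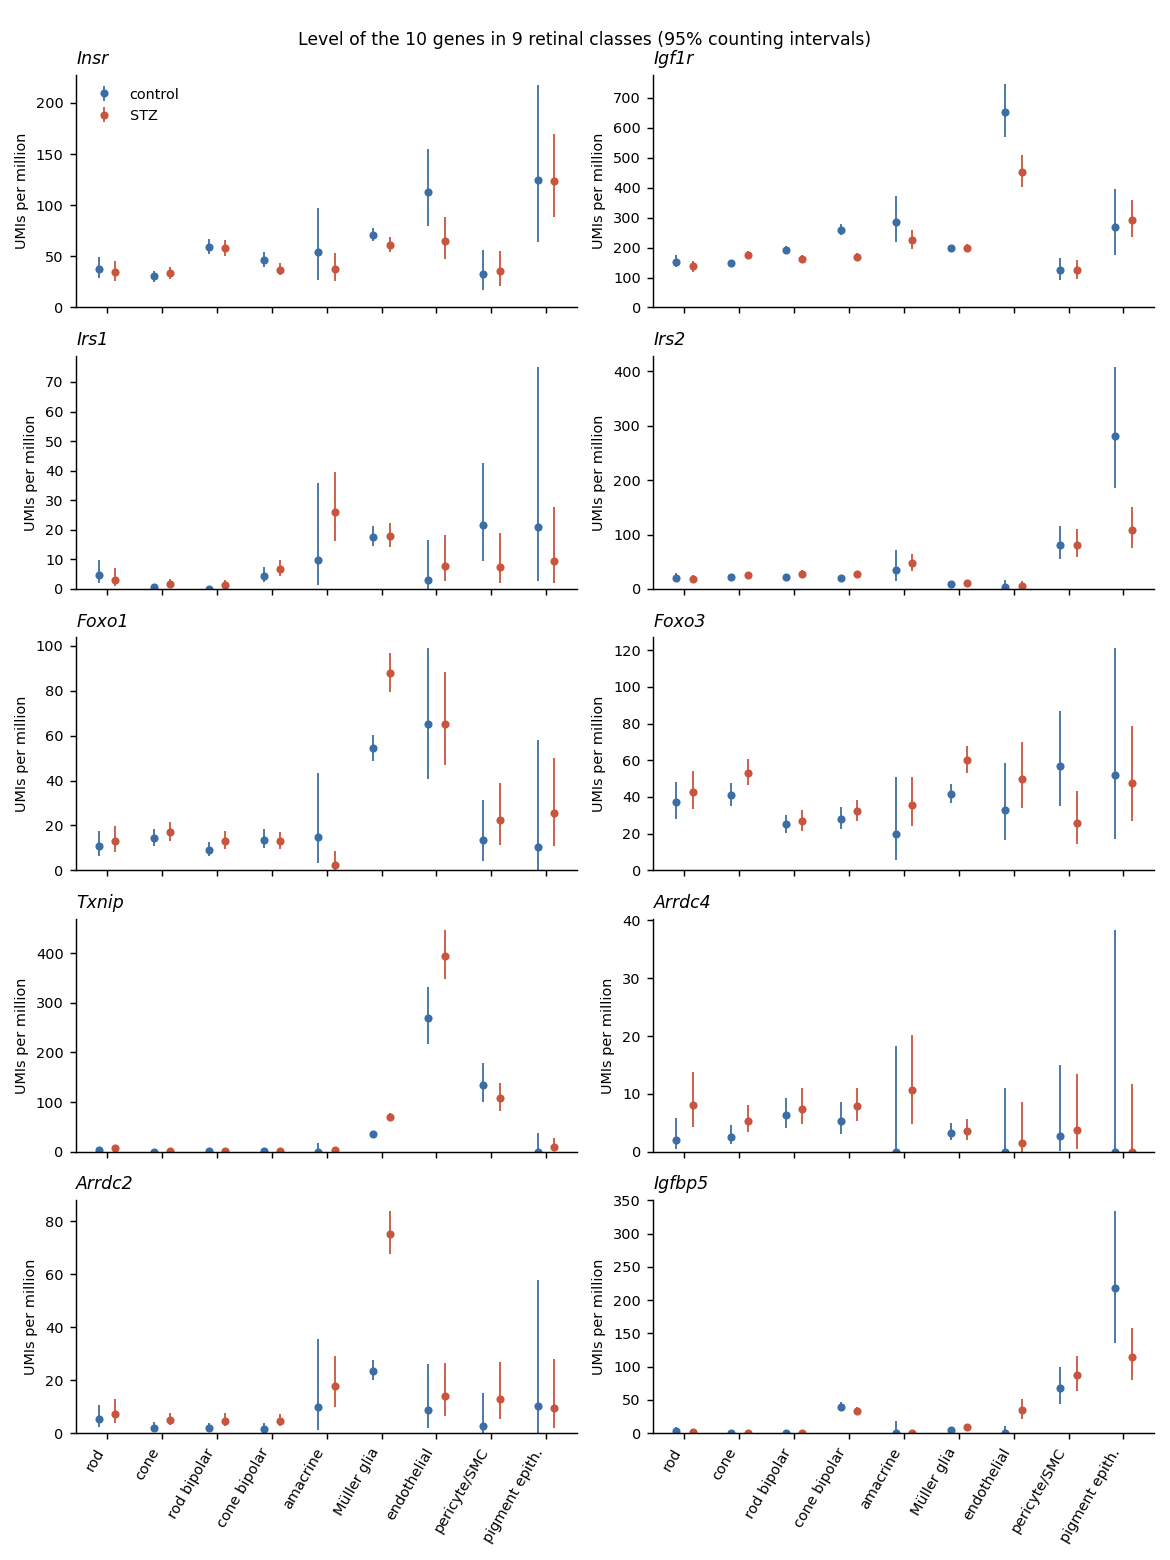
Level of each of the 10 genes in CPM (y axes, each from 0) in the 9 compared classes (x axes), control in blue and STZ in red, with 95% counting intervals. Txnip stands out in endothelial-like and pericyte or smooth muscle-like cells, Arrdc2 in Müller glia-like cells, Igf1r in endothelial-like cells and Irs2 in pigment epithelium-like cells.

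The genes whose level over the 9 classes and both libraries was most like that of Txnip were Rgcc (r = 0.99), Cthrc1 (r = 0.99) and Parp14 (r = 0.98). For Insr they were Sod1 (0.91), Lhfpl2 (0.90) and Tes (0.88), and for Igfbp5 Parm1, Bmp2 and Tbc1d1 (0.87 each). These are Pearson correlations of log2(CPM + 10) over 18 points among 7894 genes, and the points of a library share its depth and free RNA.

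The rest of the pathway was read from lists of its parts. Of the 28 genes of the PI3K, AKT and mTOR relay, 26 were measured in Müller glia-like cells, where 0 were higher and 0 lower, with a median log2 ratio of 0.02 against 0.03 over all genes. Among the receptor-proximal adaptors and brakes the median lay below that of all genes in every class, with 2 to 10 genes measured. Its Müller glia-like value was -0.24, with 1 of 10 measured genes lower, Sh2b1, an adaptor that enhances receptor signalling (23.6 against 14.9 CPM, ratio 0.63, 0.47 to 0.85). Ptpn2, a phosphatase that acts on the insulin receptor, was lower in 3 of 7 classes, among them cone bipolar-like cells (ratio 0.60, 0.48 to 0.75). Of the genes measured in all 9 classes, 3.02% were lower in at least 3. Ptpn2 was measured in fewer classes and was named for its number of lower classes, so this share does not test it.

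Of the ligands and binding proteins, 2 of 3 measured genes were higher in endothelial-like cells, where 19% of all genes were. Igfbp3 had 21 UMIs in control and 177 in STZ, or 62.3 against 275 CPM, a ratio of 4.41 (2.80 to 7.31), and in cells of at least 1000 UMIs the ratio was 5.15 (3.22 to 8.66). Igfbp4 had 2 and 61 UMIs, a ratio of 16 with a wide interval (4.24 to 135), and met the measured rule only through STZ. In pericyte or smooth muscle-like cells Igfbp4 stood at 81 and 165 CPM, a ratio of 2.04 (1.33 to 3.19).

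Among the FOXO targets, 2 of 18 measured genes were higher and 2 lower in Müller glia-like cells (4.84% and 2.93% of all genes), with a median of 0.03. Gadd45a, a growth arrest gene, was higher there (ratio 1.82, 1.40 to 2.38) and in 4 of 8 classes in all, cone-like cells included (ratio 2.44, 1.73 to 3.48). Of the 2321 genes measured in all 9 classes, 7.02% were higher in at least 3. Gadd45a was measured in fewer classes and was named for its number of higher classes, so this share does not test it. Klf15, a regulator of fasting metabolism, was higher in Müller glia-like cells (18.5 against 28.4 CPM, ratio 1.53, 1.19 to 1.97), and Ccng2, a cyclin, was lower (ratio 0.57, 0.42 to 0.76). Bnip3, which acts in mitophagy, was lower in cone bipolar-like cells (320 against 171 CPM, ratio 0.54, 0.49 to 0.59). Cat, the catalase gene, was lower in pigment epithelium-like cells (571 against 264 CPM, ratio 0.46, 0.33 to 0.66).

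Of the other arrestin-domain genes and the MondoA and ChREBP axis, 0 of 13 measured genes passed 1.5-fold in either direction in Müller glia-like cells, with a median log2 ratio of -0.17. Arrdc3, an alpha-arrestin, stood at 64.5 and 88.1 CPM there, a ratio of 1.37 (1.19 to 1.57). In cone bipolar-like cells 3 of 14 were lower (4.67% of all genes), with Slc2a3, a neuronal glucose transporter, at a ratio of 0.60 (0.50 to 0.73) and Pfkfb3, a driver of glycolysis, at 0.49 (0.34 to 0.70).

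The list of glucocorticoid-induced genes had a median above that of all genes in each of the 9 classes, from 0.09 in rod-like to 0.75 in pericyte or smooth muscle-like cells. Of 12 genes measured in Müller glia-like cells, 4 were higher and 1 lower, against 4.84% and 2.93% of all genes. Fkbp5, a chaperone of the glucocorticoid receptor, was higher in 6 of 6 classes where it was measured, in Müller glia-like cells from 4.75 to 27.5 CPM (ratio 5.79, 3.90 to 8.82). The measured rule pools both libraries. Fkbp5 met it only through STZ in Müller glia-like cells and in endothelial-like cells, which held 1 UMI in control and 29 in STZ. The 6 of 6 is therefore partly set by the rule. Mt2, a metallothionein, was higher in 8 of 9 classes, and Tsc22d3, also known as GILZ, in 5 of 8, with a ratio of 1.82 (1.54 to 2.15) in Müller glia-like cells. Among the genes measured in all 9 classes, 1.68% were higher in at least 5. Fkbp5, Mt2 and Tsc22d3 were named for their number of higher classes, so this share does not test them. Fkbp5 and Tsc22d3 were also measured in fewer classes than the genes behind it. Other genes of the list went the other way in 1 class each: Sgk1, a kinase, in rod-like cells (ratio 0.64, 0.58 to 0.71), Errfi1, an inhibitor of EGF receptors, in Müller glia-like cells (0.63, 0.52 to 0.75) and Dusp1, a MAP kinase phosphatase, in endothelial-like cells (0.57, 0.49 to 0.67). In rod-like cells 2 of 11 measured genes of the list were lower and 3 higher.

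**Figure D4:**
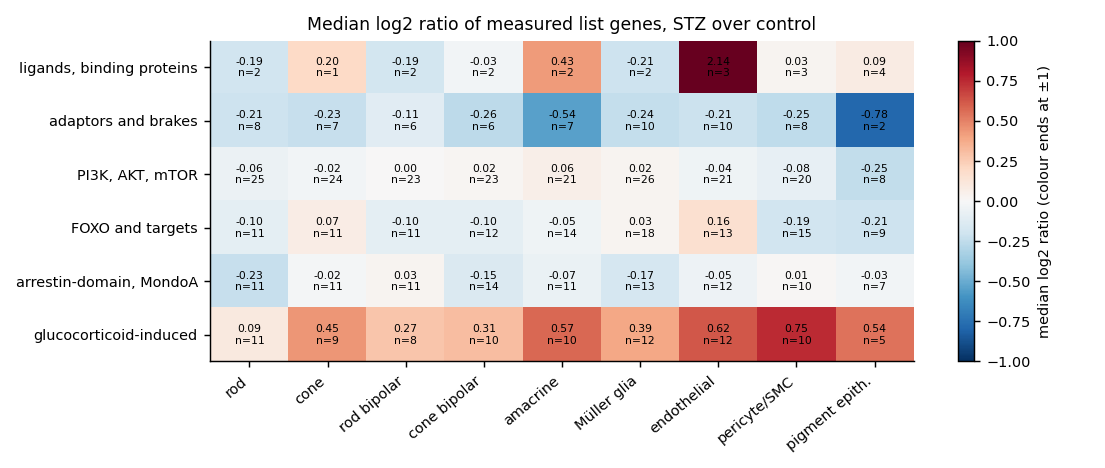
Median log2 ratio of STZ over control (colour, and the upper number in each cell) over the measured genes of 6 lists (rows) in 9 classes (columns), with n the number measured. The glucocorticoid-induced row is above 0 in all 9 classes, and the PI3K, AKT and mTOR row stays near 0 outside pigment epithelium-like cells, where 8 genes were measured.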

How the data were processed

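The authors' deposited table gives raw UMI counts per gene and cell, with the library in the ending of each cell name. Cell Ranger 3.0.1, Seurat 3.0 and mm10 are named in the submitters' processing notes. Cells under 200 genes or over 20% mitochondrial counts were left out. Scrublet removed 37 control cells (0.695%, automatic threshold) and the top 628 STZ scores (7.09%), because its automatic threshold called 0% there. Clustering used scanpy 1.11.5 with 2000 variable genes scaled within each library, 30 components, 15 neighbours and Leiden resolution 1. A cluster was named from at least 3 leading markers of 1 class.

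Counts were summed per class and library and scaled to CPM. Intervals are exact Poisson (levels), exact binomial (shares) and conditional binomial (ratios), take UMIs as independent and cover counting error only. A count of 0 was set to 3. The code was tested on simulated data. The members, lists and cluster naming were chosen with earlier results of these data known. All 10 members are named, and of each list up to 3 genes per direction qualified, ranked by the number of classes past 1.5-fold. Gene positions are from GENCODE M21. Alternatives covered cell filters, doublets, resolution, thinning, averaging over cells, denominators, centring and free RNA. Those on shared barcodes, single Müller glia-like clusters, marker-free cells, added bipolar clusters and cells of at least 1000 UMIs were chosen after seeing the data.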

Additional observations from a re-analysis of the deposited data

Results flagged for a closer look

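Igfbp5 passed 1.5-fold in opposite directions in 2 classes, with both counting intervals clear of 1. The endothelial-like pair met the measured rule through its 22 STZ UMIs alone, so it could only be called higher. In endothelial-like cells the control library held 0 UMIs, and the log2 ratio of STZ over control was 1.94 against a floor of 3 counts. This is a ratio of 3.84, and its counting interval starts lower, at 2.87. In pigment epithelium-like cells the log2 ratio was -0.93. The endothelial-like value turned to -1.37 at Leiden resolution 0.5, where 106 control cells instead of 98 were in the class, so the opposite directions do not hold at that resolution. No cluster was named astrocyte there, while the main clustering had an astrocyte cluster of 8 control and 7 STZ cells. The difference between the classes was not tested, because each group is 1 library.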

How the results depend on the processing

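Of 593 values of single members under other settings, 550 stayed within the counting interval of the reported value, 39 moved outside it and 4 that had been past 1.5-fold changed sign. Over all values, past 1.5-fold or not, 77 in 32 gene and class pairs had the other sign, 17 of them after thinning and 13 under the stricter cell filter. The 4 past 1.5-fold were in endothelial-like cells: thinning to 500 UMIs gave log2 ratios of 0.56 for Insr, -0.0255 for Foxo3 and -0.29 for Igfbp5, and Leiden resolution 0.5 gave -1.37 for Igfbp5, where 8 control cells of that larger cluster held all 163 control UMIs. The main clustering had an astrocyte cluster of 8 control and 7 STZ cells, and no cluster was named astrocyte at resolution 0.5. After thinning, control Igfbp5 was at 0 and the value rests on the floor of 3 counts. For Insr and Foxo3 the cause was not tested. The count of pairs at least 1.5-fold higher, 7 of 50, became 4 of 27 after thinning. The count at least 1.5-fold lower, 5 of 50, became 3 of 38 under a stricter cell filter (500 genes or more, mitochondrial share of 10% or less), 3 of 27 after thinning and 2 of 43 in cells of at least 1000 UMIs. Without the 21 barcodes found in both libraries the counts were again 7 and 5. In Müller glia-like cells Arrdc2 passed 1.5-fold in 15 of 15 settings, Txnip in 14 of 15 (not after thinning) and Foxo1 in 12 of 15 (lowest log2 ratio 0.45, under the stricter cell filter). Igf1r in cone bipolar-like cells passed in 12 of 13 (-0.54 under the stricter filter). That filter left amacrine-like and pigment epithelium-like cells under 50 in control, with no value. No paired analysis was possible because each group is 1 library and the results come from no test.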

Other observations

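Cluster 14, an unnamed cluster of low UMIs with Müller glia markers (124 control and 126 STZ cells), held 410 CPM of Igf1r in control against 256 CPM, a ratio of 0.63 (0.41 to 0.95). Igf1r hardly differed in the Müller glia-like class as a whole. The ratio there was 0.88 (0.776 to 0.999) in cluster 3 and 1.14 (1.01 to 1.28) in cluster 4. The Arrdc2 level of cluster 14 was 70.2 and 107 CPM, on 12 and 15 UMIs, a ratio of 1.52 whose interval (0.66 to 3.55) includes 1. In unnamed cluster 13, Foxo3 had 12 UMIs in control and 29 in STZ, a ratio of 2.43 (1.20 to 5.23).

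In microglia-like cells, with 43 in control and 104 in STZ, Txnip had 42 and 113 UMIs, or 346 and 419 CPM, a ratio of 1.21 (0.84 to 1.77). Ins2, an insulin gene, was measured in pigment epithelium-like cells alone, with 2 UMIs in control and 33 in STZ, a ratio of 5.05 (1.29 to 43.4). It met the measured rule only through its STZ counts.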
